A study of Mus musculus with 14 samples.

Results

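The genes of the JNK and p38 kinase cascades were followed through 3 stress treatments of B16-F10 cells. The set holds 41 genes, listed by name from the known pathway with earlier results of these data known. Of these, 35 were measured, among 12393 genes that the arrays represent with a single gene symbol. No probeset carries the symbol of Map2k7, Map4k2, Map4k3, Mapkapk3, Rps6ka4 or Rps6ka5 in the annotation used here, so these 6 genes have no value below. A probeset is a group of short probes read together, of which 20380 on the arrays carry 1 gene symbol, 691 several and 1555 none. Only those with 1 symbol were taken for a gene, and 20 members have several, so that the 35 genes hold 71 probesets. Each member was read from its probeset with the highest mean signal unless another is named.

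JNK and p38 are protein kinases that carry stress signals from the cell surface to the nucleus. They are switched on by phosphorylation through a chain of kinases, in which MAP4Ks and adaptor proteins act on MAP3Ks, MAP3Ks act on MAP2Ks, and MAP2Ks phosphorylate JNK or p38 itself. Heat, osmotic shock, inflammatory cytokines and agents that disturb membranes are known activators of both. Arrays report the amount of RNA for these kinases and not whether the proteins were phosphorylated.

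B16-F10 is a mouse melanoma cell line of C57BL/6J origin, and all arrays come from this 1 line. Cells were incubated for 3 h with Lipofectamine 2000 alone, with no DNA, in Opti-MEM and then for 30 min in serum medium (3 arrays), heat shock at 42.5 °C for 1 h and 30 min at normal temperature (3 arrays), or 40 mM benzyl alcohol for 1 h (3 arrays). Recovery from benzyl alcohol is given as 3 h in one description and as 30 min in another. Control cells were untreated (5 arrays), so the liposomes and the change of medium cannot be told apart, and arrays of a group are labelled as biological replicates with no further detail, so the p-values measure the spread between these samples. In RNA from whole cultures, fewer cells of a kind and less RNA per cell cannot be told apart.

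Signals are on a log2 scale on which 1 unit is a 2-fold difference, and array medians lay between 7.03 and 7.12. Mean signals were 7.47 (Oca2) to 13.2 (Pmel) over 9 pigment cell markers, 4.70 (Ptprc) to 8.13 (Csf1r) over 5 macrophage and leukocyte markers, 4.31 (Col3a1) to 7.33 (Col1a2) over 5 fibroblast markers and 3.46 (Cdh1) to 7.24 (Krt8) over 4 epithelial markers, where the median of all probesets was 7.08. These are levels of different probes and no detection calls were used, so they do not show whether the markers at mid signal were expressed. At 38.7% of all probesets control arrays 1 and 3 did not overlap control arrays 2, 4 and 5. For called members and further genes and the members' widest differences, values without arrays 1 and 3, or without arrays 2, 4 and 5, are given where these ended or made a call or moved the value by over 1.5 times. Cell type markers were not fitted in this way. Rose and fell are used only of differences with an adjusted p under 0.05 in limma (Benjamini-Hochberg over 22626 probesets).

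Mean signals of the members spanned 5.17 to 10.6. The lowest were those of Map3k2 (5.17), Mapk10 (5.60), which encodes the JNK known mainly from brain, and Map3k5 (5.66). The highest were those of Map2k3 (10.6), Mknk2 (9.92) and Mapk14 (9.85), which encodes p38 alpha. The signal of a probeset also depends on its probes, so these values are no order of RNA amounts between genes.

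After Lipofectamine, Map2k3 was the 1 member of 35 that rose, and 0 fell. Map2k3 encodes the kinase MKK3, which phosphorylates p38. Its RNA was 1.43-fold higher than in control cells, a log2 difference of 0.52 (SE 0.114, adjusted p = 0.0212). Over all probesets 1.78% rose and 3.1% fell, so the members' count is close to that of the array as a whole. The 3 members with the widest differences did not pass. These were Map2k6, another MAP2K of p38, at −0.69 (adjusted p = 0.0971), the JNK scaffold Mapk8ip1 at −0.66 (adjusted p = 0.123), and Mknk2, a kinase of the initiation factor eIF4E, at −0.53 (adjusted p = 0.585).

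Without adjustment, 8 members had p under 0.05 with Lipofectamine, 3 of them higher and 5 lower, where 18.8% of all probesets did. The median log2 difference of the members was −0.10, against −0.02 over all probesets. All 3 Lipofectamine arrays lay above all control arrays for 1 member, Map2k3, and below them for 2, Map3k4 and Tab1, where 3.69% of all probesets lay above and 6.72% below. The 95% interval of the difference stayed within 2-fold for 32 of the 35 members and within 1.5-fold for 26. The count of members called was 0 without Lipofectamine array 1 or array 2, where 1.13% and 3.35% of all probesets were called, 5 without control array 1 (10.0% of all probesets) and 4 without control array 3 (7.39%). Without both of these control arrays it was 9, among them Map2k6, Mapk8ip1 and Mknk2 as lower, and 18.8% of all probesets were then called. Without control arrays 2, 4 and 5 it was 4, with Mknk2 then higher at 0.58, and 4.62% of all probesets were called.

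After heat shock, Map4k5 was the 1 member that fell, and 0 rose. Map4k5 encodes a kinase of the germinal centre kinase family that acts at the top of the JNK cascade. Its RNA was 1.53-fold lower than in control cells, a log2 difference of −0.61 (SE 0.149, adjusted p = 0.0314). Over all probesets 1.05% rose and 4.91% fell. Mapk8ip1 at −0.70 (adjusted p = 0.0896) and Mknk2 at −0.67 (adjusted p = 0.349) differed by more and did not pass.

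Lower values were frequent among the members with heat shock without passing the test. The difference was below 0 for 26 of 35 members, where 44.9% of all probesets were below 0, and the median was −0.10 against 0.03 over all probesets. Members were read from their brightest probesets, while the shares over all probesets are not matched for signal. Without the dimmer part of the probesets 26 members remained, and 10.2% of the probesets kept were called, against 5.96% in the main fit. Without adjustment 10 members had p under 0.05, 9 lower and 1 higher, where 22.8% of all probesets did. Heat shock arrays lay wholly below the control arrays for 5 members, Map4k5, Map3k4, Tab1, Traf2 and Daxx, and above them for 0, where 10.2% of all probesets lay below and 7.58% above. The 95% interval stayed within 2-fold for 33 members and within 1.5-fold for 25. The summed signal of 5 leukocyte markers was 9.28 to 9.36 with heat shock, 8.89 to 9.54 with Lipofectamine and 8.91 to 9.21 in control arrays. None of these 5 markers passed with heat shock in limma (adjusted p = 0.238 to 0.540). The summed signal of 9 pigment cell markers was 15.16 to 15.25 with heat shock and 15.28 to 15.65 in control arrays. Of the pigment cell markers Sox10 fell by 0.98 (adjusted p = 0.0135) and Tyr by 0.39 (adjusted p = 0.0415), while Mitf, at −1.46, did not pass (adjusted p = 0.0528). For each of these, control arrays 1 and 3 lay below control arrays 2, 4 and 5. The means of the control sets differed by −0.76 for Sox10, −0.27 for Tyr and −1.78 for Mitf, so the heat shock values depend on the control arrays used. The part of the markers in the members' differences was not tested. The count of members called was 0 without control array 4 (2.36% of all probesets called) or without any 1 of the heat shock arrays (1.14% to 1.70%). It was 4 without control array 1 (9.09% of all probesets), 5 without control array 3 (11.7%), 9 without both of those (21.8%) and 4 without control arrays 2, 4 and 5 (3.72%).

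Set against each other, Lipofectamine and heat shock differed at 2 members, Map2k3 and Map4k5, both higher after Lipofectamine. Over all probesets 4.42% were higher after Lipofectamine and 1.3% lower. The difference was 0.72 for Map2k3 (SE 0.128, adjusted p = 0.00582), a 1.65-fold difference, and 0.69 for Map4k5 (SE 0.167, adjusted p = 0.0273), a 1.62-fold difference. Map3k7, which encodes the MAP3K known as TAK1, was next at 0.43 and did not pass (adjusted p = 0.106), and with the mean of its probesets it was at 0.12. The median over the members was 0.05, against −0.05 over all probesets, and 5 members had an unadjusted p under 0.05, where 20.4% of all probesets did. The count was 1, Map2k3, without heat shock array 1 or 2 or without Lipofectamine array 1 or 2, where 1.87% to 2.43% of all probesets were called, and 4 without control arrays 1 and 3, when Map3k7 and Mapk9 were also called and 13.6% of all probesets were.

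With benzyl alcohol 0 members passed, while 0.689% of all probesets rose and 0.698% fell. Without adjustment 5 members had p under 0.05, 2 higher and 3 lower, where 13.4% of all probesets did. The largest differences were those of Tab2, an adaptor that carries TAK1 to ubiquitin chains, at −0.50 (adjusted p = 0.428), of Map2k3 at 0.44 (adjusted p = 0.0952) and of Mknk2 at 0.44 (adjusted p = 0.715). Map2k3 lay above all control arrays, and Mapk12 and Daxx lay below them, where 3.17% of all probesets lay above and 4.38% below. The 95% interval stayed within 2-fold for 33 members and within 1.5-fold for 30. Without control arrays 2, 4 and 5 the count was 10, with 12.5% of all probesets called, and without control arrays 1 and 3 it was 0, with 3.03%. Tab2 was at −1.04 without control arrays 2, 4 and 5 (adjusted p = 0.00423) and at −0.14 without control arrays 1 and 3 (adjusted p = 0.889).

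Of the 5 macrophage and leukocyte markers Cd68 rose with benzyl alcohol, at 6.37, 5.78 and 6.47 against 5.16 to 5.59 in control arrays (0.90, adjusted p = 0.00374), and the other 4 differed by 0.12 to 0.20 without passing. The summed signal of these markers was 9.13 to 9.39 with benzyl alcohol and 8.91 to 9.21 in control arrays. Its part in the differences with benzyl alcohol, those of Map2k3 and of the further genes below included, was not tested. The comparisons of the 3 treatments with control share the same control arrays, and the plot of member differences sets them side by side.

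**Figure D1:**
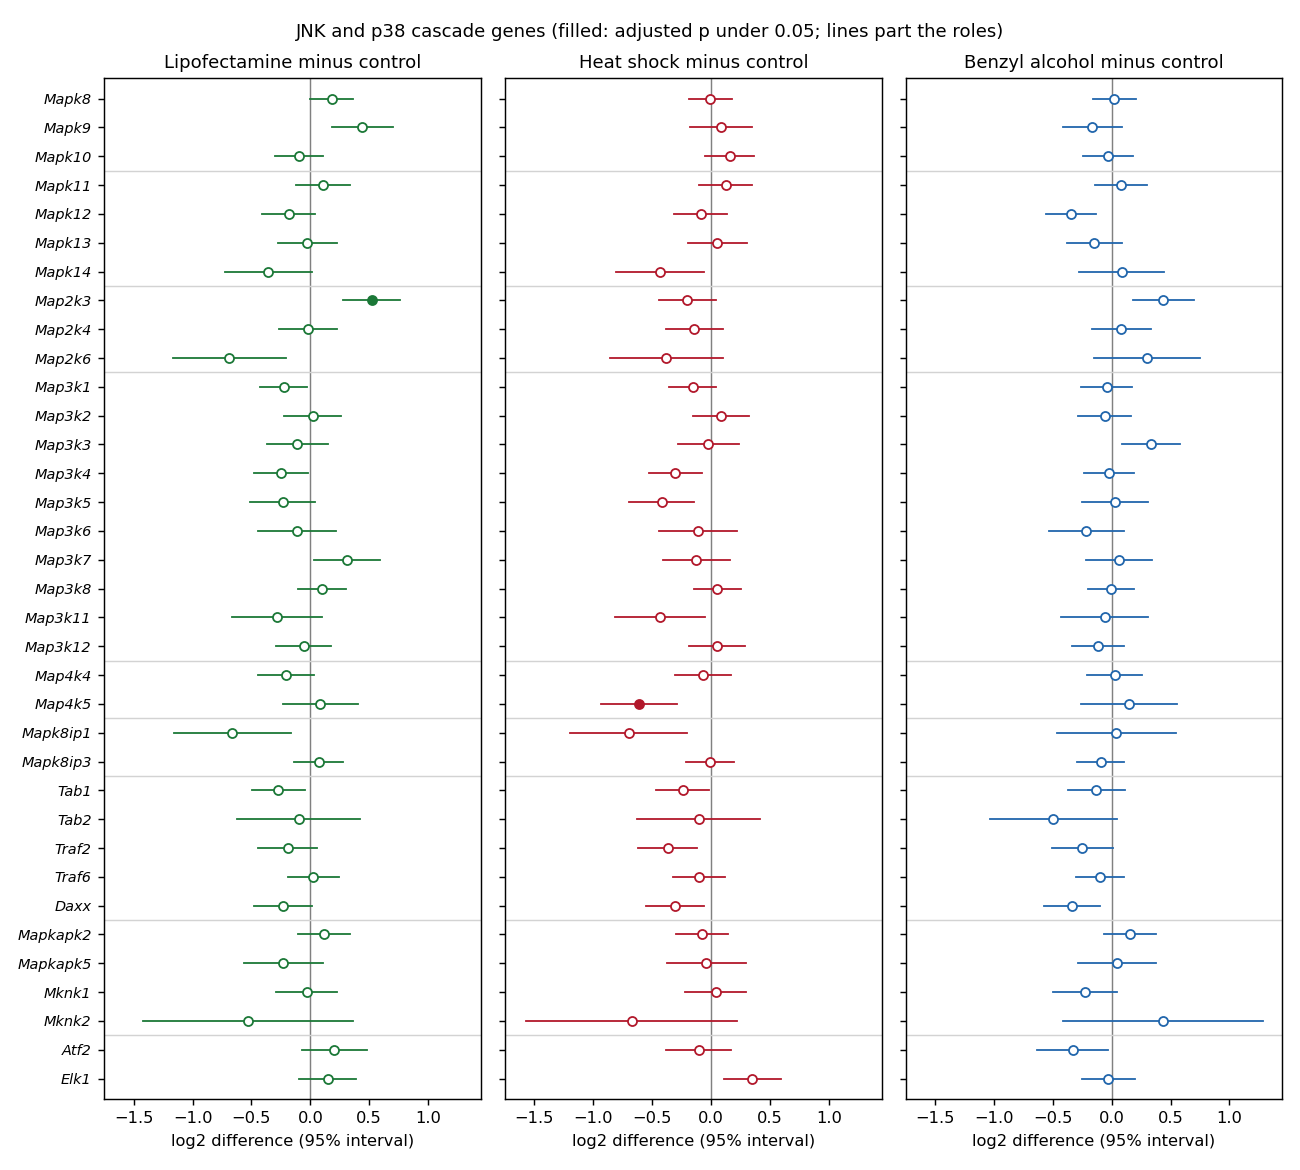
Log2 difference of each of the 35 measured members (rows, grouped by role from JNK at the top to transcription factors) from control after Lipofectamine, heat shock and benzyl alcohol, with 95% intervals; filled points passed an adjusted p of 0.05. The filled points are Map2k3 after Lipofectamine (0.52) and Map4k5 after heat shock (−0.61), and the widest intervals are those of Mknk2.

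Among the 3 measured MAP2Ks, the kinases that phosphorylate JNK and p38, Map2k3 was the one called at its brightest probeset. At probeset 1451714_a_at its log2 signals were 11.03, 11.20 and 10.71 after Lipofectamine, 10.16, 10.25 and 10.37 after heat shock, 11.16, 10.77 and 10.77 after benzyl alcohol, and 10.34, 10.40, 10.47, 10.47 and 10.62 in control arrays. All Lipofectamine and benzyl alcohol arrays were thus above all control arrays, while the heat shock arrays reached into the control range. A second probeset, 1425456_a_at, had 9.94, 9.91 and 9.77 after Lipofectamine, 9.14, 9.14 and 9.26 after heat shock, 9.97, 9.95 and 9.68 after benzyl alcohol, and 9.15, 9.29, 9.17, 9.38 and 9.42 in control arrays. Its groups were arranged in the same way. At the second probeset limma gave 0.59 for Lipofectamine against control (adjusted p = 0.00356), 0.58 for benzyl alcohol against control (adjusted p = 0.00684), −0.10 for heat shock against control (adjusted p = 0.532) and 0.70 for Lipofectamine against heat shock (adjusted p = 0.00271). Both probesets passed for Lipofectamine against control and against heat shock, while for benzyl alcohol the second passed and the first did not.

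The difference of Map2k3 between Lipofectamine and heat shock passed in all 23 alternatives at the first probeset and in all 21 at the second. Against control, the first probeset no longer passed without Lipofectamine array 1 (0.49, adjusted p = 0.115) or array 2 (0.41, adjusted p = 0.0747), or when only these 2 groups were fitted (adjusted p = 0.0607), while the second passed in each of its 21 alternatives. With benzyl alcohol the second probeset was lost only when no other treatment was in the fit (adjusted p = 0.0625).

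**Figure D2:**
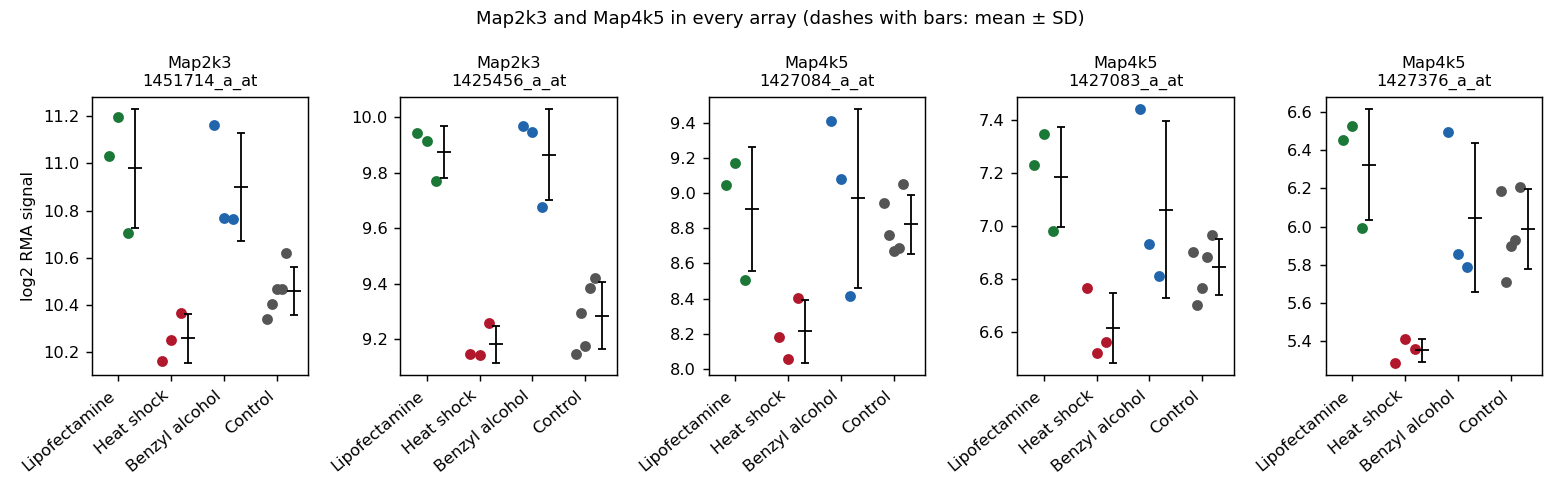
Log2 RMA signal (vertical axes) of both probesets of Map2k3 and all 3 of Map4k5 in each of the 14 arrays, with group means ± SD beside the points. Map2k3 lies above the control arrays after Lipofectamine and benzyl alcohol, and Map4k5 at 1427084_a_at lies at 8.06 to 8.40 after heat shock, below all other arrays.

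The sequence before the start of Map2k3 is shown because this gene carried the call for Lipofectamine. It is the 250 bases before the RefSeq start on mouse chromosome 11 (GRCm38.p6, chr11:60931804-60932053, + strand), and capitals mark GCGTG on either strand, the core letters of the xenobiotic response element bound by the aryl hydrocarbon receptor.
Map2k3: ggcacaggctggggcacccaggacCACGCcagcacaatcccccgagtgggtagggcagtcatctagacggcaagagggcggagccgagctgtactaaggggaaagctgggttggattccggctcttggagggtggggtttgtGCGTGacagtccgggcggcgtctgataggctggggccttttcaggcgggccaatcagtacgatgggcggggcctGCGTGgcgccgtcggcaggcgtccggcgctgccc
This core occurred 3 times in the Map2k3 window. It was found in 30 of 49 start windows of members (27 of the 36 members with a window), against 32.4% of all 32851 windows of the same 300 bases. The serum response factor's CArG box was present in 1 member window, that of Mknk2, and in 1.63% of all windows. These shares were not matched for the base composition of the windows and have no test, and both motifs were added after the values were seen. A match is a run of letters and was not tested as a binding site.

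The other MAP2Ks did not pass at their brightest probesets. Map2k4 encodes MKK4, which acts on both JNK and p38, and its differences were −0.02 with Lipofectamine, −0.14 with heat shock and 0.08 with benzyl alcohol. Map2k6 encodes MKK6, the close relative of MKK3, and its signals were 6.25, 6.15 and 6.44 after Lipofectamine, 6.48, 6.68 and 6.60 after heat shock, 7.13, 7.22 and 7.45 after benzyl alcohol, and 6.30, 7.21, 6.54, 7.41 and 7.39 in control arrays 1 to 5. All Lipofectamine and heat shock arrays of Map2k6 lay below control arrays 2, 4 and 5, while Lipofectamine overlapped control array 1 and heat shock overlapped control array 3. Without control array 1 the Lipofectamine difference of Map2k6 was −0.86 (adjusted p = 0.00949) and without control array 3 it was −0.80 (adjusted p = 0.0375), and it was −1.05 without both (adjusted p = 3.07e-06) and −0.14 without control arrays 2, 4 and 5 (adjusted p = 0.728).

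Of the MAP4Ks, Map4k5 was lower after heat shock than in every other array. Its signals at 1427084_a_at were 9.05, 9.17 and 8.51 after Lipofectamine, 8.18, 8.06 and 8.40 after heat shock, 9.41, 9.08 and 8.42 after benzyl alcohol, and 8.95, 8.76, 8.67, 8.69 and 9.05 in control arrays. Lipofectamine and benzyl alcohol arrays spread around the control arrays, at differences of 0.08 (adjusted p = 0.858) and 0.15 (adjusted p = 0.825). At 1427376_a_at heat shock gave 5.29, 5.41 and 5.36, against 6.19, 5.71, 5.90, 5.93 and 6.21 in control arrays, a difference of −0.63 (adjusted p = 0.0215) that was lost on leaving out any heat shock array (highest adjusted p = 0.0903). At 1427083_a_at the heat shock difference was −0.23 and did not pass (adjusted p = 0.221). The direct difference between Lipofectamine and heat shock passed at all 3 probesets, at 0.69, 0.97 (adjusted p = 0.00378) and 0.57 (adjusted p = 0.0141).

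The call of Map4k5 after heat shock was lost without control array 4 (adjusted p = 0.0543) or 5 (adjusted p = 0.0721), on leaving out any heat shock array (adjusted p = 0.114, 0.168 and 0.0695 for arrays 1 to 3), without control arrays 2, 4 and 5 (adjusted p = 0.0768), and also in a fit of all 14 arrays (adjusted p = 0.0718). The direct difference was lost on leaving out Lipofectamine array 1 (adjusted p = 0.13), Lipofectamine array 2 (0.122), heat shock array 1 (0.099) or heat shock array 2 (0.128), while at 1427376_a_at it passed in all 20 alternatives. At 1427083_a_at it was lost on leaving out Lipofectamine array 1 or 2 or heat shock array 2 or 3 (highest adjusted p = 0.0767). Map4k4, which encodes a related kinase, differed by −0.21 with Lipofectamine, −0.07 with heat shock and 0.02 with benzyl alcohol, none of them passing.

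Heat shock factor binds repeats of the letters GAA, so the windows were searched for GAANNTTC and TTCNNGAA on both strands. The 250 bases before the RefSeq start of Map4k5, on the − strand of chromosome 12 (GRCm38.p6, chr12:69893164-69893413), are shown because this gene fell after heat shock, and none of its letters is in capitals because neither pattern occurred. The 250 bases before a second start of Map2k4, on the − strand of chromosome 11 (GRCm38.p6, chr11:65745857-65746106), are shown beside them because both patterns occur there and overlap, as the capitals mark.
Map4k5: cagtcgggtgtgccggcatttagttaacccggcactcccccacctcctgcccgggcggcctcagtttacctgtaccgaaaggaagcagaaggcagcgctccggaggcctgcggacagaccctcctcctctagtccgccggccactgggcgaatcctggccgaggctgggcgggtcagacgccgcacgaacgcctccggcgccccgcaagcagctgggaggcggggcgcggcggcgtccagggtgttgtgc
Map2k4: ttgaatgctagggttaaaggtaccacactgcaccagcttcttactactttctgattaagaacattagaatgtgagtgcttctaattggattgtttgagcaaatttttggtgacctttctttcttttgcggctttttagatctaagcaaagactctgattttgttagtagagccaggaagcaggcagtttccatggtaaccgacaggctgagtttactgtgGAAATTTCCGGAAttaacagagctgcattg
These patterns were found in 6 of 49 start windows of members, against 15.1% of all windows. The windows belong to 5 of the 36 members with a window, Map2k4, Map2k6, Map2k7 (which has no signal here), Map3k6 and Mapk11. The 250 bases before the other start of Map2k4 held 0 matches. The cyclic AMP response element TGACGTCA was in 1 member window (Mapk10) and 1.79% of all windows, and the AP-1 site, TGAGTCA or its reverse, in 1 (Rps6ka4) and 5.20%.

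The genes of JNK and p38 themselves did not pass at their brightest probesets. The 3 JNK genes differed from control by −0.10 to 0.44 with Lipofectamine, by −0.01 to 0.16 with heat shock and by −0.17 to 0.02 with benzyl alcohol, and 0 passed. Mapk9, which encodes JNK2, came nearest after Lipofectamine, with 9.47, 9.60 and 9.29 after Lipofectamine, 9.06, 9.12 and 9.10 after heat shock, 8.97, 8.75 and 8.82 after benzyl alcohol, and 9.05, 8.76, 9.34, 8.91 and 8.99 in control arrays. Its Lipofectamine arrays overlapped control array 3, and the difference of 0.44 had an adjusted p of 0.0545. Without control array 1 or control array 3 Mapk9 passed, as it did in the fit of all 14 arrays. Mapk8, which encodes JNK1, differed by 0.18 with Lipofectamine (95% interval −0.00 to 0.36) and by −0.01 with heat shock (−0.19 to 0.18).

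Of the 4 p38 genes 0 passed. Mapk14 had 9.63, 9.80 and 9.49 after Lipofectamine, 9.54, 9.67 and 9.49 after heat shock, 10.23, 9.84 and 10.17 after benzyl alcohol, and 9.50, 10.18, 9.70, 10.28 and 10.31 in control arrays 1 to 5. The Lipofectamine and heat shock arrays of Mapk14 overlapped control arrays 1 and 3 and lay below the other control arrays, and the differences were −0.36 (adjusted p = 0.29) and −0.43 (adjusted p = 0.153). Mapk12, which encodes p38 gamma, lay below all control arrays after benzyl alcohol, at 8.22, 8.09 and 8.17 against 8.41 to 8.62, a difference of −0.35 (adjusted p = 0.111). Mapk11 and Mapk13 (p38 beta and delta) differed by 0.15 or less in either direction in each comparison with control.

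The 10 MAP3Ks, which receive different upstream signals, did not pass at their brightest probesets in any comparison. Their differences ran from −0.28 to 0.31 with Lipofectamine, from −0.44 to 0.08 with heat shock and from −0.22 to 0.33 with benzyl alcohol. Map3k4, a MAP3K bound and activated by GADD45 proteins, was at 8.15, 8.10 and 8.19 after Lipofectamine and 8.16, 8.07 and 8.06 after heat shock, against 8.22, 8.50, 8.20, 8.60 and 8.46 in control arrays. Both treatments lay below all control arrays, by differences of −0.25 (adjusted p = 0.212) and −0.30 (adjusted p = 0.103). Map3k5, which encodes ASK1, a kinase held inactive by thioredoxin, differed by −0.42 with heat shock (adjusted p = 0.0709), and Map3k11, which encodes MLK3, by −0.44 (adjusted p = 0.162). Map3k3, which encodes MEKK3, was at 7.83, 7.65 and 7.82 after benzyl alcohol against 7.30 to 7.70 in control arrays (0.33, adjusted p = 0.192). The remaining MAP3Ks, Map3k1, Map3k2, Map3k6, Map3k8 and Map3k12, stayed between −0.22 and 0.10 in the 3 comparisons with control.

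Scaffolds hold the kinases of a cascade together. Mapk8ip1, which encodes JIP1, had 8.80, 8.99 and 8.69 after Lipofectamine, 8.70, 8.94 and 8.73 after heat shock, 9.78, 9.74 and 9.07 after benzyl alcohol, and 9.05, 9.78, 8.80, 9.92 and 9.91 in control arrays 1 to 5. The Lipofectamine and heat shock arrays of Mapk8ip1 overlapped control array 3 alone, and leaving out control array 3 moved the Lipofectamine difference to −0.84 (adjusted p = 0.0148) and the heat shock difference to −0.87 (adjusted p = 0.00739). Without control array 1 these were −0.77 (adjusted p = 0.0428) and −0.81 (adjusted p = 0.0386), without both they were −1.04 and −1.08, and without control arrays 2, 4 and 5 they were −0.09 and −0.13. Mapk8ip3, which encodes JIP3, differed by 0.07, −0.01 and −0.09 after Lipofectamine, heat shock and benzyl alcohol.

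The adaptors link receptors to the MAP3Ks. All 5 were lower with heat shock, by −0.10 to −0.37, and with benzyl alcohol, by −0.10 to −0.50, and none of these differences passed. Of all probesets 44.9% were below 0 with heat shock and 45.7% with benzyl alcohol. Control arrays 1 and 3 lay above control arrays 2, 4 and 5 for Tab1, Tab2, Traf2 and Daxx, with means apart by 0.05, 0.90, 0.32 and 0.30, but not for Traf6. The size of these differences thus depends on the control arrays used. Traf2, a ubiquitin ligase of the tumour necrosis factor receptor, had 7.49, 7.29 and 7.47 after heat shock against 7.50 to 8.01 in control arrays (−0.37, adjusted p = 0.0777), and it passed on leaving out control array 5. Daxx, a Fas-binding protein that links to ASK1, had 9.33, 9.05 and 9.28 after heat shock and 9.31, 9.08 and 9.18 after benzyl alcohol, against 9.34 to 9.76 in control arrays (−0.31, adjusted p = 0.13, and −0.34, adjusted p = 0.169). Tab1, a partner of TAK1, lay at 7.47, 7.25 and 7.71 after Lipofectamine and 7.65, 7.44 and 7.44 after heat shock, both below the narrow control range of 7.72 to 7.81 (−0.27, adjusted p = 0.165, and −0.24, adjusted p = 0.194). Traf6, another ubiquitin ligase, differed by 0.03, −0.10 and −0.10 after Lipofectamine, heat shock and benzyl alcohol.

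Downstream of p38, Mapkapk2, the kinase of the small heat shock protein Hspb1, differed by 0.12, −0.08 and 0.16 after Lipofectamine, heat shock and benzyl alcohol, and Mapkapk5 by −0.23, −0.04 and 0.04. Mknk1 and Mknk2 encode kinases of eIF4E. Mknk1 differed by −0.03, 0.04 and −0.23 in the same order. Mknk2 was at 9.56, 9.71 and 9.40 after Lipofectamine, 9.46, 9.40 and 9.38 after heat shock, 10.85, 10.08 and 10.65 after benzyl alcohol, and 8.87, 10.74, 9.08, 10.95 and 10.79 in control arrays 1 to 5. Every Lipofectamine and heat shock array of Mknk2 thus lay between control arrays 1 and 3 and the other control arrays, and the direction of its differences turned with the control arrays used. Without control arrays 1 and 3 they were −1.27 with Lipofectamine, −1.42 with heat shock and −0.30 with benzyl alcohol, and without control arrays 2, 4 and 5 they were 0.58, 0.44 and 1.55.

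Of the transcription factors that JNK and p38 phosphorylate, Elk1 had 8.07, 7.83 and 7.76 after heat shock against 7.42 to 7.83 in control arrays, a difference of 0.35 (adjusted p = 0.0839) that passed without control array 3. Atf2 had 9.13, 9.12 and 8.93 after Lipofectamine and 8.45, 8.90 and 8.91 after heat shock, against 8.70 to 9.15 in control arrays. The differences of Atf2 were 0.20 (adjusted p = 0.457) and −0.11 (adjusted p = 0.651), and with benzyl alcohol −0.33 (adjusted p = 0.316).

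The dimmer probesets of the members held further differences. Of the members' 71 probesets, 2 rose and 1 fell with Lipofectamine, where 1.78% of all probesets rose and 3.1% fell. With heat shock 0 rose and 7 fell, where 1.05% and 4.91% of all probesets did. With benzyl alcohol 1 rose and 0 fell, where 0.689% and 0.698% of all probesets did. After Lipofectamine 9 were higher and 0 lower than after heat shock, where 4.42% of all probesets were higher and 1.3% lower. Probesets of a gene share its RNA and are no replicates. At 1426233_at, Map2k4 had 8.01, 7.98 and 7.70 after Lipofectamine, 6.90, 7.11 and 7.02 after heat shock, 7.32, 7.58 and 7.15 after benzyl alcohol, and 7.57, 7.56, 7.21, 7.72 and 7.94 in control arrays. The heat shock arrays lay below all others there, and the difference between Lipofectamine and heat shock was 0.89 (adjusted p = 0.00594), against 0.12 (adjusted p = 0.631) at the brightest probeset. Atf2 had 8.69, 8.59 and 8.65 after Lipofectamine, 7.84, 7.85 and 7.62 after heat shock, 7.68, 7.48 and 7.73 after benzyl alcohol, and 8.64, 8.08, 7.77, 8.14 and 8.16 in control arrays at 1427559_a_at. The Lipofectamine and heat shock arrays of Atf2 did not overlap there and differed by 0.87 (adjusted p = 0.00937), which was lost without Lipofectamine array 1 (adjusted p = 0.0507). At 1426582_at the difference was 0.80 (adjusted p = 0.0136), lost on leaving out Lipofectamine array 1 or 2 or heat shock array 1 or 3 (highest adjusted p = 0.0694). Mapk9 at 1421876_at was 0.54 higher after Lipofectamine than after heat shock (adjusted p = 0.00902), which was lost without Lipofectamine array 1 (adjusted p = 0.0614).

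Probesets of a gene did not always go the same way. Map3k7 fell at 1455441_at, with 7.99, 8.11 and 8.07 after Lipofectamine and 8.13, 8.06 and 8.24 after heat shock against 8.25, 8.69, 8.51, 8.63 and 8.69 in control arrays (−0.50, adjusted p = 0.0206, and −0.41, adjusted p = 0.0422). The Lipofectamine call of Map3k7 was lost on leaving out control array 4 or Lipofectamine array 1 or 3 (highest adjusted p = 0.117), and the heat shock call on leaving out control array 2, 4 or 5, any heat shock array or Lipofectamine array 1 (highest adjusted p = 0.192). At its brightest probeset the Lipofectamine arrays of Map3k7, at 9.23, 9.23 and 9.09, were instead in the upper part of the control range of 8.57 to 9.25. The remaining falls with heat shock were those of Mapk14 at 1416704_at (−0.94, adjusted p = 0.0492), Map3k4 at 1450253_a_at (−0.90, adjusted p = 0.0289), Map2k4 at 1426233_at (−0.59, adjusted p = 0.0289) and Atf2 at 1426582_at (−0.63, adjusted p = 0.0268), and each was lost on leaving out control array 4, control array 5 or any heat shock array, those of Mapk14 and Map3k4 also on leaving out control array 2, and that of Mapk14 also on leaving out any Lipofectamine array (highest adjusted p = 0.174). Their size also went with the control arrays used. Without control arrays 2, 4 and 5 no call remained, at −0.34 for Mapk14, −0.37 for Map3k4, −0.38 for Map2k4 and −0.60 for Atf2 (adjusted p = 0.257, 0.143, 0.16 and 0.08), and without control arrays 1 and 3 the values were −1.34, −1.25, −0.73 and −0.65. The Map3k7 differences at 1455441_at were −0.32 and −0.24 for Lipofectamine and heat shock without control arrays 2, 4 and 5, and were not called (adjusted p = 0.19 and 0.32). Of 16 results called at dimmer probesets 4 held in every alternative, those of Map2k3 for Lipofectamine against control and against heat shock, and those of Map2k4 and Map4k5 (1427376_a_at) for Lipofectamine against heat shock.

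**Figure D3:**
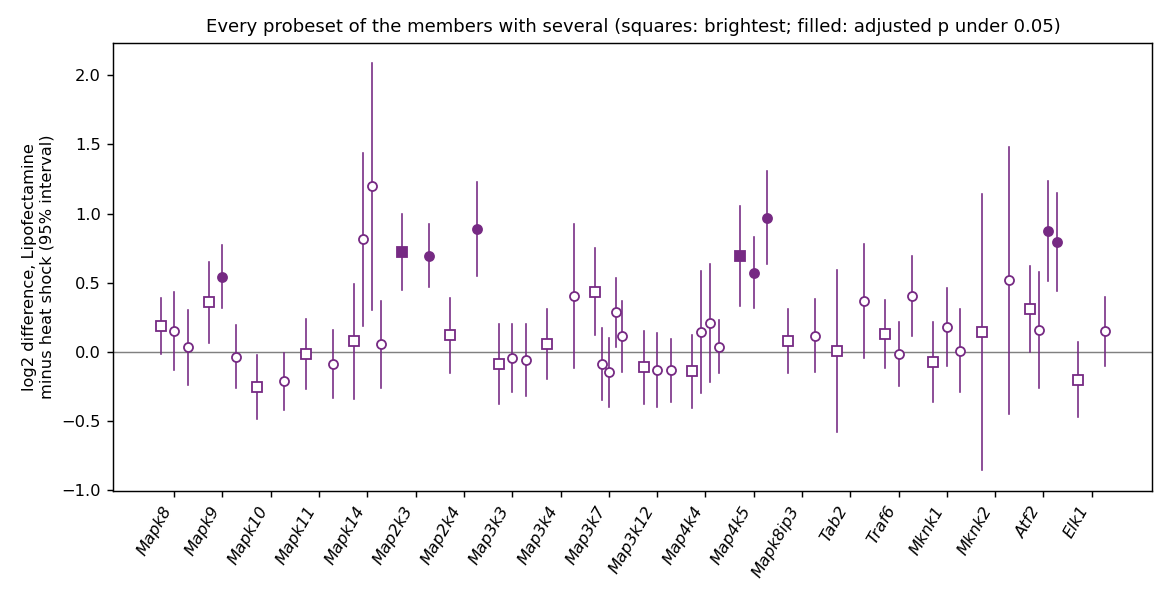
Log2 difference between Lipofectamine and heat shock (vertical axis, 95% intervals) at every probeset of the 20 members that have several; squares are the brightest probeset and filled symbols passed an adjusted p of 0.05. All 9 filled symbols, in Mapk9, Map2k3, Map2k4, Map4k5 and Atf2, lie above 0, while the other probesets of Mapk9, Map2k4 and Atf2 are open. Over all probesets 4.42% were higher after Lipofectamine and 1.3% lower.

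The division among the control arrays was also seen among the members. For 19 of the 35 members control arrays 1 and 3 did not overlap control arrays 2, 4 and 5, where 38.7% of all probesets did not. Of these members 10 were higher and 9 lower in arrays 1 and 3. The median absolute difference of the 35 members was 0.20, against 0.14 over all probesets. It was largest for Mknk2, at −1.85, followed by Mapk8ip1 (−0.95), Map2k6 (−0.91), Tab2 (0.90), Mapk14 (−0.66), Map3k6 (0.60) and Map3k11 (−0.53). Tab2 had 9.74, 9.95 and 9.35 after Lipofectamine, 9.68, 9.63 and 9.71 after heat shock, 9.66, 8.81 and 9.37 after benzyl alcohol, and 10.13, 9.13, 10.50, 9.53 and 9.59 in control arrays 1 to 5. For Map2k3 and Map4k5 the control arrays were not divided in this way, with differences of −0.09 and −0.03. The division is a description of arrays already known to stand apart and has no test.

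**Figure D4:**
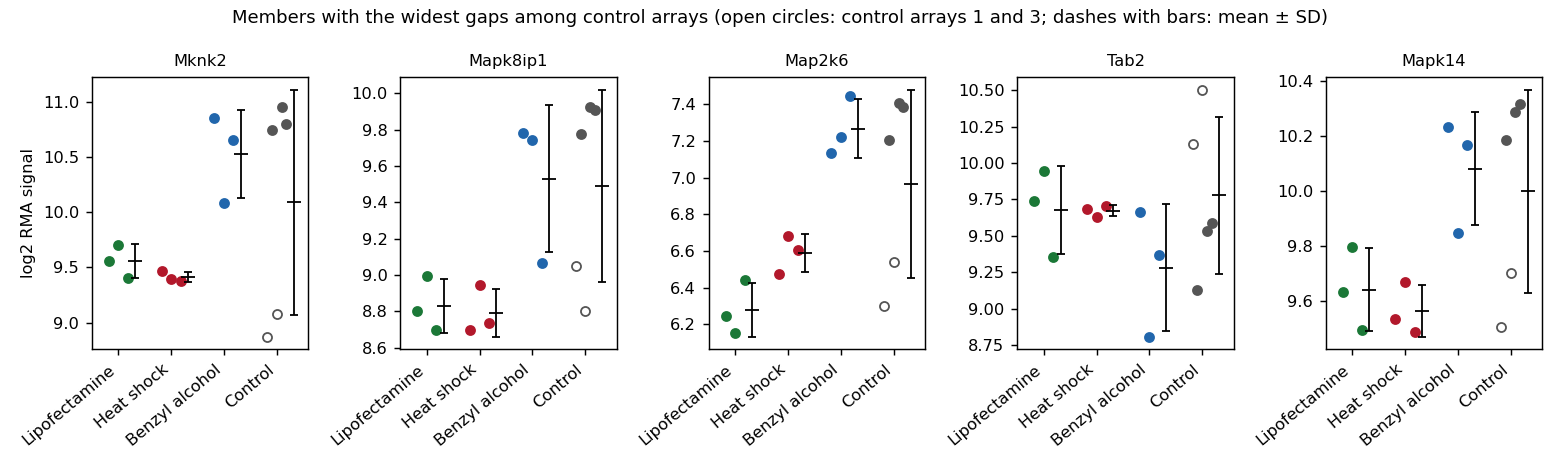
Log2 RMA signal (vertical axes) in each array for the 5 members with the widest gaps between control arrays 1 and 3 (open circles) and control arrays 2, 4 and 5 (filled grey), with group means ± SD. For Mknk2 the open circles are at 8.87 and 9.08 and the filled control arrays at 10.74 to 10.95.

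Of 63 further genes of the pathway and its surroundings, Lipofectamine raised 4 and lowered 1, heat shock raised 3 and lowered 7, and benzyl alcohol raised 4 and lowered 1. Over all probesets 1.78% rose and 3.1% fell with Lipofectamine, 1.05% and 4.91% with heat shock, and 0.689% and 0.698% with benzyl alcohol. The same shares apply to the shorter lists below. Of the 3 GADD45 genes, whose proteins activate Map3k4, Gadd45g had 7.28, 7.72 and 7.06 after Lipofectamine, 8.10, 7.90 and 8.45 after heat shock, 7.11, 6.21 and 7.92 after benzyl alcohol, and 5.71, 5.32, 5.80, 5.61 and 5.38 in control arrays. Every treated array of Gadd45g lay above every control array, with rises of 1.79 (adjusted p = 0.000115), 2.58 (adjusted p = 1.04e-06) and 1.51 (adjusted p = 0.0102). Gadd45b rose with benzyl alcohol by 0.98 (adjusted p = 0.00123) and differed by 0.20 and 0.11 with Lipofectamine and heat shock.

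Of 20 measured factors and substrates downstream of JNK and p38, the largest difference was that of Hspb1, the substrate of Mapkapk2 and itself a heat shock gene. It rose by 5.38 with heat shock and 4.56 with benzyl alcohol (adjusted p = 1.87e-10 and 5.48e-10), and its Lipofectamine difference of 0.53 did not pass (adjusted p = 0.0805). Zfp36, a Mapkapk2 substrate that destabilizes cytokine mRNAs, rose with Lipofectamine by 1.17 (adjusted p = 0.00768), as did Junb, an AP-1 subunit, by 1.49 (adjusted p = 0.0141), and Creb1 by 0.51 (adjusted p = 0.0381). With heat shock Eif4e, the substrate of the Mknk kinases, fell by 0.61 (adjusted p = 0.0213), and Elk3, Elk4 and Mef2c also fell. With benzyl alcohol the pro-apoptotic gene Bcl2l11 rose by 0.97 (adjusted p = 0.0217) and Max fell by 0.70 (adjusted p = 0.0429). Leaving out 1 array ended these calls for Junb (Lipofectamine array 1 or 3, highest adjusted p = 0.0714), Bcl2l11 (benzyl alcohol array 3, 0.152) and Eif4e (control array 4 or any heat shock array, highest 0.105). The calls of Creb1, Elk3, Elk4, Mef2c and Max each ended for 6 or more of the arrays left out singly (highest adjusted p = 0.219).

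Several of these values went with the control arrays used. With Lipofectamine, Junb was at 2.0 without control arrays 1 and 3 and at 0.73 when arrays 2, 4 and 5 were left out instead, and Zfp36 at 1.48 and 0.71, all of them called. Creb1 was at 0.33 without control arrays 2, 4 and 5 and was not called (adjusted p = 0.262). With heat shock and without control arrays 2, 4 and 5, no call remained for Elk3 (−0.44), Mef2c (−0.28), Eif4e (−0.35) or Elk4 (−0.51), with adjusted p = 0.172, 0.296, 0.159 and 0.0697, while without control arrays 1 and 3 they were at −1.36, −0.99, −0.78 and −0.42. With the mean of a gene's probesets in place of the brightest, the heat shock values of Elk3 (−0.52), Elk4 (−0.05), Mef2c (−0.46) and Eif4e (−0.56) were not called, and Bcl2l11 with benzyl alcohol was at 0.61 and called (adjusted p = 0.0132).

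Of 9 phosphatases that switch JNK and p38 off, Dusp2 fell with heat shock by 0.80 (adjusted p = 0.0135) and 0 rose in any comparison. Of 18 further upstream kinases and scaffolds, Taok3 rose (0.45) and Taok1 fell (−0.50) with heat shock. In the ERK cascade, 13 genes measured as a neighbouring pathway, Rps6ka3 fell with Lipofectamine by 0.88 (adjusted p = 0.00241) and Mapk6 fell with heat shock by 0.43 (adjusted p = 0.025). Between Lipofectamine and heat shock, Cdc42, Mef2d, Eif4e and Mapk6 were higher after Lipofectamine (0.64, 0.49, 0.57 and 0.46) and Hspb1, Gadd45g and Rps6ka3 lower (−4.85, −0.79 and −0.54). Over all probesets 4.42% were higher after Lipofectamine than after heat shock and 1.3% lower. Leaving out 1 array ended the call of Dusp2 (any heat shock array, highest adjusted p = 0.0775) and that of Mapk6 with heat shock (control array 5 or heat shock array 2 or 3, highest 0.138), and the fall of Rps6ka3 with Lipofectamine passed whichever array was left out but not with the mean of its probesets (−0.24, adjusted p = 0.126). Without control arrays 2, 4 and 5 no call remained for Dusp2 (−0.44, adjusted p = 0.0638), Taok1 (−0.44), Taok3 (0.26) or Mapk6 with heat shock (−0.44), and without control arrays 1 and 3 Dusp2 was at −1.05. The calls of Taok1 and Taok3 each ended for 7 of the arrays so left out. Between Lipofectamine and heat shock, those of Cdc42, Mef2d, Eif4e, Mapk6, Gadd45g and Rps6ka3 ended for 4 to 8 of them (highest adjusted p = 0.172), and with the mean of the probesets Eif4e was at 0.06 (adjusted p = 0.865), Cdc42 at 0.20 (0.284), Rps6ka3 at −0.04 (0.844) and Mef2d at 0.38 (0.0545). Of the 27 called results over these lists 7 held in every alternative, those of Gadd45g for Lipofectamine and for heat shock, Zfp36 for Lipofectamine, Gadd45b for benzyl alcohol, and Hspb1 in its 3 comparisons.

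**Figure D5:**
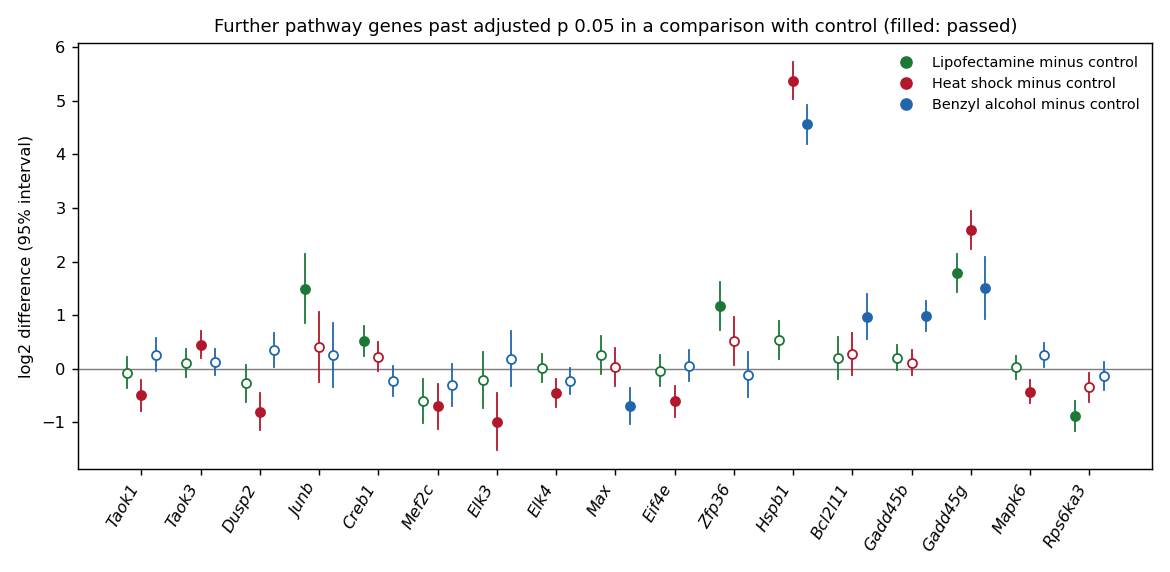
Log2 difference from control (vertical axis, 95% intervals) after Lipofectamine, heat shock and benzyl alcohol for the further pathway genes that passed an adjusted p of 0.05 in at least 1 comparison with control; filled points passed. Hspb1 stands at 5.38 with heat shock and 4.56 with benzyl alcohol, and Gadd45g is filled in all 3 comparisons.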

How the data were processed

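RNA of 14 B16-F10 samples was hybridized to Affymetrix mouse arrays. The authors read them with GCOS 1.2 and applied RMA, and the deposited values are log2 signals; the RMA version and the arrays normalized together are not given in the sources used here. RMA signals carry no read depth, so the number of arrays limits the precision.

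Values were tested with R 4.3.3 and limma 3.58.1. After 64 Affymetrix control probesets were left out, 22626 probesets were tested with no filter on signal. Control, Lipofectamine and heat shock arrays shared 1 fit, benzyl alcohol was compared with control in a fit of all 14 arrays, and the p-values of all probesets were adjusted together (Benjamini-Hochberg). A gene was represented by its probeset of highest mean signal.

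The members and gene lists were chosen with earlier results of these data known. Values in every array are given for called members with all their probesets; the 3 largest differences in each comparison, the 3 highest and 3 lowest signals, and up to 6 called genes of each further list are named, and other members given with values were picked after their values were seen. Promoter windows (250 bases before to 50 after a start) come from the RefSeq table of GRCm38.p6; GCGTG and the CArG box were added as motifs after the values were seen, since the study's promoter analysis concerned their factors.

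In simulated data with these group sizes and spreads limma recovered 40%, 90%, 100% and 100% of log2 changes of 0.5, 1, 2 and 3 for Lipofectamine against control. The simulated noise was independent in each array, with no division among the control arrays and few changed probesets. The shares recovered can therefore differ in the real arrays. Alternatives were other sets of arrays in the fit, the methods' threshold, a variance trend, no dim probesets, other normalizations, other choices of probeset, a replicate block, and arrays left out.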

Additional observations from a re-analysis of the deposited data

Results flagged for a closer look

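Among the 35 members, 3 had a control array far from the other control arrays, by a gap that exceeds 0.71 of the group's range. Tab1 was at 7.81 in control array 1 and at 7.72 to 7.74 in the other control arrays. Atf2 was at 9.15 in control array 1 and at 8.70 to 8.83 in the others. Elk1 was at 7.83 in control array 3 and at 7.42 to 7.52 in the others. Such a gap appears by chance in about 1 in 20 groups.

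The responses to Lipofectamine and to heat shock differed, in the direct test between the treatments by limma, at Map2k3 by 0.72 (adjusted p = 0.00582) and at Map4k5 by 0.69 (adjusted p = 0.0273). At the brightest probesets the lower value of Map4k5 lay with heat shock, and the higher value of Map2k3 with Lipofectamine. At probeset 1427083_a_at of Map4k5 the direct difference also passed, while that between heat shock and control did not.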

How the results depend on the processing

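The count of members called with Lipofectamine against control was 1, and 12 of 23 alternatives stayed within 1.5 times of it. It was 2 with all 14 arrays in the fit, without the dimmer part of the probesets and after renewed quantile normalization, Mapk9 being added each time. Of all probesets in those fits 5.44%, 8.7% and 5.38% were called, against 4.88% in the main fit. It was 0 with only the 2 groups in the fit (2.02% of all probesets called) and 9 without control arrays 1 and 3 (18.8%). Without control arrays 2, 4 and 5 it was 4 (4.62%), and with 1 array left out it was 0 to 5 (1.13% to 10.0%). For heat shock against control the count of 1 (5.96% of all probesets called) became 0 with all 14 arrays (6.38%) or at the methods' threshold (2.43%). It became 3 after quantile normalization (5.5%) and 2 with the mean of a gene's probesets (5.72% of genes). It was 9 without control arrays 1 and 3 (21.8%), 4 without control arrays 2, 4 and 5 (3.72%), and 0 to 5 with 1 array left out (1.14% to 11.7%). For benzyl alcohol the count of 0 became 1, Map2k3, after quantile normalization (1.78% of all probesets called) and with the mean of the probesets (1.77% of genes). Without control arrays 2, 4 and 5 it was 10 (12.5%), and it was 0 whichever single array was left out (0.579% to 1.95%). In the main fit 5 members had an unadjusted p under 0.05 in limma. For Lipofectamine against heat shock the count of 2 became 1 with all 14 arrays (5.71% of all probesets called) or at the methods' threshold (2.88%). It was 4 with only the 2 groups (12.8%) or without control arrays 1 and 3 (13.6%), and 1 to 3 with 1 array left out (1.87% to 7.81%). Mknk2 turned direction without control arrays 2, 4 and 5, to 0.58 with Lipofectamine (adjusted p = 0.0168) and 0.44 with heat shock (adjusted p = 0.0733), and without control arrays 1 and 3, to −0.30 with benzyl alcohol (adjusted p = 0.432). The cause was not tested. With the replicate number as a block, 0 members were called for each treatment against control and 2 between Lipofectamine and heat shock. Of all probesets 0.822%, 0.849% and 1.26% were then called for Lipofectamine, heat shock and benzyl alcohol against control, and 4.42% between Lipofectamine and heat shock. For same-numbered arrays of different groups, 18 correlations of the deviations from the group means ran from −0.56 to 0.44 (median 0.0013). For differently numbered arrays 36 such correlations ran from −0.65 to 0.63 (median 0.0085). Deviations within a group sum to 0, so a median near 0 cannot show whether arrays shared a day or a batch. Array weights could not be fitted because the estimate did not converge. With 3 treated arrays, simulated log2 changes of 0.5 were recovered in 30% to 40% of cases, so differences of the size seen here can be missed, and no detection calls were used for the dim members.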

Other observations

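The further genes Jun, Gadd45a and Dusp1, picked after their values were seen, differed more between control arrays 1 and 3 and the other control arrays than any member did. Jun, the factor for which JNK is named, was at 9.36, 9.70 and 9.26 after Lipofectamine, 11.38, 11.50 and 11.69 after heat shock, 8.69, 7.30 and 11.52 after benzyl alcohol, and 10.93, 7.35, 10.95, 7.80 and 7.79 in control arrays 1 to 5. Its heat shock difference of 2.56 did not pass (adjusted p = 0.0553), and its benzyl alcohol arrays spanned both control levels. Gadd45a had 8.06, 8.02 and 7.10 after Lipofectamine, 7.87, 7.69 and 7.89 after heat shock, 6.08, 5.00 and 6.23 after benzyl alcohol, and 9.52, 4.59, 9.12, 4.66 and 4.93 in control arrays 1 to 5. All 6 Lipofectamine and heat shock arrays of Gadd45a thus lay between the control levels. Dusp1, a phosphatase of JNK and p38, had 9.26, 9.82 and 9.30 after Lipofectamine and 9.38, 9.28 and 10.10 after heat shock, all above the control arrays at 9.12, 6.94, 9.17, 7.22 and 7.62, yet its differences of 1.44 and 1.57 did not pass (adjusted p = 0.0892 and 0.0582).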
